A study of Caenorhabditis elegans with 2 samples.

Results

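A set of 32 aminoacyl-tRNA synthetase genes of Caenorhabditis elegans, chosen by name, was examined in chromatin immunoprecipitation sequencing of LIN-13 from whole L4 larvae. They were the nuclear protein-coding genes that the Ensembl annotation of WBcel235 names with 1 letter, ars and a number, and they were 32 of 19973 nuclear protein-coding genes. Any synthetase gene under another name is not in the set. The zinc-finger protein LIN-13 belongs to the synMuv B group, which keeps vulval fate in check. The strain OP49 carried unc119(ed3) and the transgene wgIs49, which holds unc119 and a copy of lin-13 tagged with TY1, EGFP and FLAG, besides the endogenous lin-13 gene. The labels name lin-13 as the antibody's target and EGFP-tagged lin-13 as what was precipitated. The larvae are given as males and females pooled and their age is given as unknown. Both samples, 2 biological replicates, form a single group, and no other condition was set against it. The values are therefore peaks in pooled animals of 1 transgenic strain and carry no test between conditions. Fragments of all tissues were pooled, so a peak does not say in which cells it lay.

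Aminoacyl-tRNA synthetases join each amino acid to its tRNA, and every protein made by a ribosome depends on them. The cytosol and the mitochondrion each translate their own messages, and the enzymes of both places are encoded in the nucleus, often by separate genes. Some synthetase genes serve both compartments from the same locus, as is known for the human glycyl and lysyl enzymes. In worm gene names the number 1 mostly marks a cytosolic and the number 2 a mitochondrial enzyme.

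Of the LIN-13 peaks in the authors' list filtered by irreproducible discovery rate (IDR), some had a summit within 500 bp of an annotated 5' end at 5 of the 32 synthetase genes: ears-2, mars-1, tars-1, aars-2 and aars-1. This was 15.6% of the genes (exact Clopper-Pearson 95% interval 5.28 to 32.8%), beside 6.99% of all nuclear protein-coding genes. The interval covers counting error only. It holds the value for all genes, so the share is not distinguished from that background. The signal values of the 5 peaks, which are the authors' and have no stated scaling, were 122.4 at ears-2, 64.4 at mars-1, 47.9 at tars-1, 45.9 at aars-2 and 45.4 at aars-1. Their ranks among the 2141 IDR peaks were 166, 797, 1542, 1661 and 1689. The ears-2 peak stood well above the others, and the median of 47.9 was below the median of 60.7 over all 1397 genes with such a summit. The lowest signal value in the IDR list was 40.1. The sequencing depth behind these values is unknown.

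**Figure D1:**
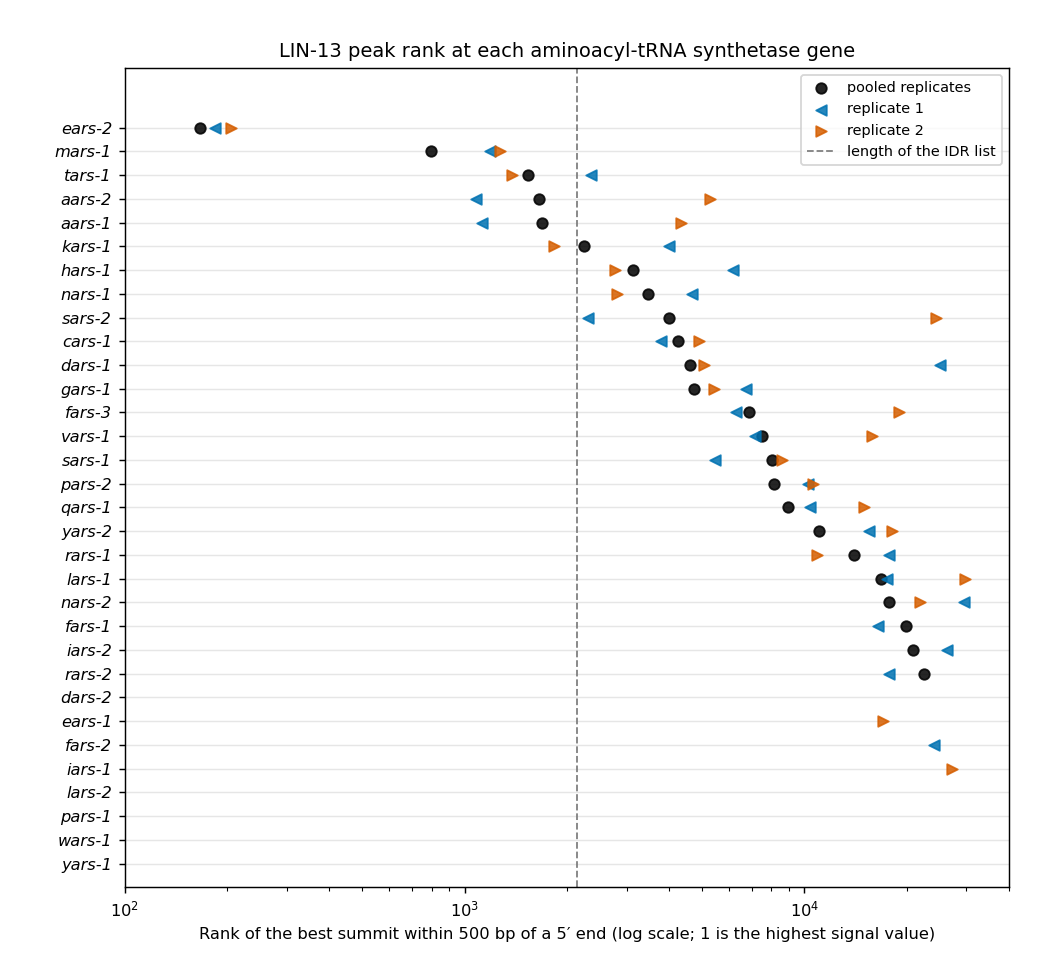
Rank of the strongest LIN-13 summit within 500 bp of a 5' end of each synthetase gene, on a log axis, in the pooled list (circles), in replicate 1 (left-pointing triangles) and in replicate 2 (right-pointing triangles). The dashed line is the length of the IDR list, 2141 peaks. A gene with no symbol had no summit in that list of 30000 peaks. Only ears-2 and mars-1 lie left of the line in all 3 lists.

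The 101 bases around a summit are shown for the 4 of these 5 genes whose sequence is given here and for kars-1, the member nearest to the IDR cut from below. They let the composition of the strongest site, at ears-2, be read against the weaker ones. Each is printed 5' to 3' on the strand of the synthetase gene with the summit in the middle, from the WBcel235 (ce11) genome. Capitals mark GCGC and runs of at least 5 CA or TG units, words that were chosen after the sequences were seen.
ears-2 (chrIV:390447-390547, minus strand): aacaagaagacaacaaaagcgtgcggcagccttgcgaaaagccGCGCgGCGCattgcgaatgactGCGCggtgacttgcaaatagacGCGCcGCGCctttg
mars-1 (chrIV:11635735-11635835, minus strand): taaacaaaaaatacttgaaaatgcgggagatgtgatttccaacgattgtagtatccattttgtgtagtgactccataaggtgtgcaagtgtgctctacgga
tars-1 (chrII:11694601-11694701, minus strand): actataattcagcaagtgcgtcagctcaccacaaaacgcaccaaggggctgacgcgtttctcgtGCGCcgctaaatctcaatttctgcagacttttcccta
aars-1 (chrII:11464635-11464735, minus strand): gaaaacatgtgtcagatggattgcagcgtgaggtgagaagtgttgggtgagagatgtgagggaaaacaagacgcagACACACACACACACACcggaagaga
kars-1 (chrII:7072702-7072802, minus strand): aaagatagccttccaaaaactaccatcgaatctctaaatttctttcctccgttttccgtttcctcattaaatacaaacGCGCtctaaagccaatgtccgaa

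The ears-2 window held 5 GCGC words. As many or more were found in 24 of the 2121 windows of the same length around nuclear IDR summits (1.13%), and 44.7% of these windows held at least 1. The tars-1 and aars-2 windows held 1 GCGC each and the mars-1 and aars-1 windows none. The aars-2 sequence is not printed here. The aars-1 window held a run of 16 alternating A and C, and runs of at least 5 units were in 2.64% of the IDR windows. In the printed 101 bases the G and C content was 58.4% at ears-2, 38.6% at mars-1, 49.5% at tars-1, 49.5% at aars-1 and 38.6% at kars-1. The printed ears-2 stretch was thus the richest in G and C of those shown. It was also the only one that reached into an exon, with 22 of its bases in ears-2. In the mars-1 and aars-1 stretches 24 and 23 bases were marked as repeats, and in the others none. Over the wider 201 bases the content was 45.3% at ears-2, 30.3% at mars-1, 38.8% at tars-1, 41.3% at aars-2 and 43.3% at aars-1, beside a mean of 43.8% ± 6.81 (SD, n = 2121 summits). Over this wider window, 1.4% of IDR summits had a lower content than mars-1, while ears-2 and aars-1 were near the mean. These are descriptions of the letters and do not identify what LIN-13 contacts.

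The peak of mars-1, which encodes the cytosolic methionine enzyme, was one of 2 with no other gene's 5' end within 500 bp. It lay at chrIV:11635617-11635952, and its intergenic summit was 298 bp upstream of the outer of 2 annotated 5' ends (mars-1, WBGene00003415, chrIV:11631941-11635487, minus strand). Its signal value was 32.0 in replicate 1 and 24.8 in replicate 2, and its ranks there were 1187 and 1268. The next protein-coding gene upstream, F58B3.6, is on the opposite strand and starts 1160 bp away. The mars-1 peak was thus similar in rank in both replicates and clear of other annotated 5' ends.

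The peak of aars-2, the other one with no second gene, lay on chromosome I from 3982762 to 3983097 with its summit 253 bp upstream (WBGene00000197, 3983183 to 3986581, plus strand). RefSeq names the product the cytoplasmic alanine enzyme, although the gene has the number 2. The nearest upstream protein-coding gene, F28H1.5, is on the opposite strand 3644 bp away. The replicates differed at this gene: the signal value was 33.4 (rank 1078) in replicate 1 and 12.0 (rank 5270) in replicate 2.

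The peak named for tars-1, a gene of a threonine enzyme, lay inside the gene. Its RefSeq product names include a cytoplasmic enzyme and another with no compartment, and no threonine gene numbered 2 was a member. The gene (WBGene00006617, chrII:11691325-11695657, minus strand) has 3 annotated 5' ends that span 1580 bp. The summit of the peak (chrII:11694483-11694818) was 358 bp upstream of an inner 5' end but 1006 bp downstream of the outermost one. It fell in an intron of tars-1 and in an intron of kel-1, which overlaps tars-1 on the opposite strand, and it was 177 bp upstream of a 5' end of kel-1. At the outermost 5' end of tars-1 the pooled list held only a weaker summit 138 bp upstream, with a signal value of 22.3 and rank 6199. The main peak had signal values of 23.2 (rank 2356) in replicate 1 and 23.8 (rank 1377) in replicate 2, close to each other in value.

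The strongest of the 5 peaks, at ears-2, lay in a narrow shared promoter. RefSeq names the product a nondiscriminating glutamyl-tRNA synthetase of mitochondria. Within the peak (chrIV:390410-390537) the summit stood 29 bp before the start of ears-2 (WBGene00001338, chrIV:388686-390468, minus strand) and 63 bp upstream of uncp-18, which runs the other way and begins 91 bp from ears-2. The signal value was 66.6 (rank 184) in replicate 1 and 53.1 (rank 206) in replicate 2. The replicates therefore ranked it alike. A single summit between 5' ends this close cannot be assigned to either gene.

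The aars-1 peak was shared as well. RefSeq names the product the mitochondrial alanine enzyme, although the gene has the number 1. The summit of the peak (chrII:11464517-11464852) lay 188 bp upstream of aars-1 (WBGene00000196, chrII:11460205-11464497, minus strand) and 209 bp upstream of rga-1, a gene on the opposite strand 396 bp away. The signal value was 32.7 (rank 1127) in replicate 1 and 13.4 (rank 4324) in replicate 2, so replicate 1 was the higher by the same kind of margin as at aars-2. At both genes the replicate 1 summit had the pooled position, 188 bp upstream of aars-1 and 253 bp upstream of aars-2. The replicate 2 summits were nearer, at 99 and 189 bp upstream.

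**Figure D2:**
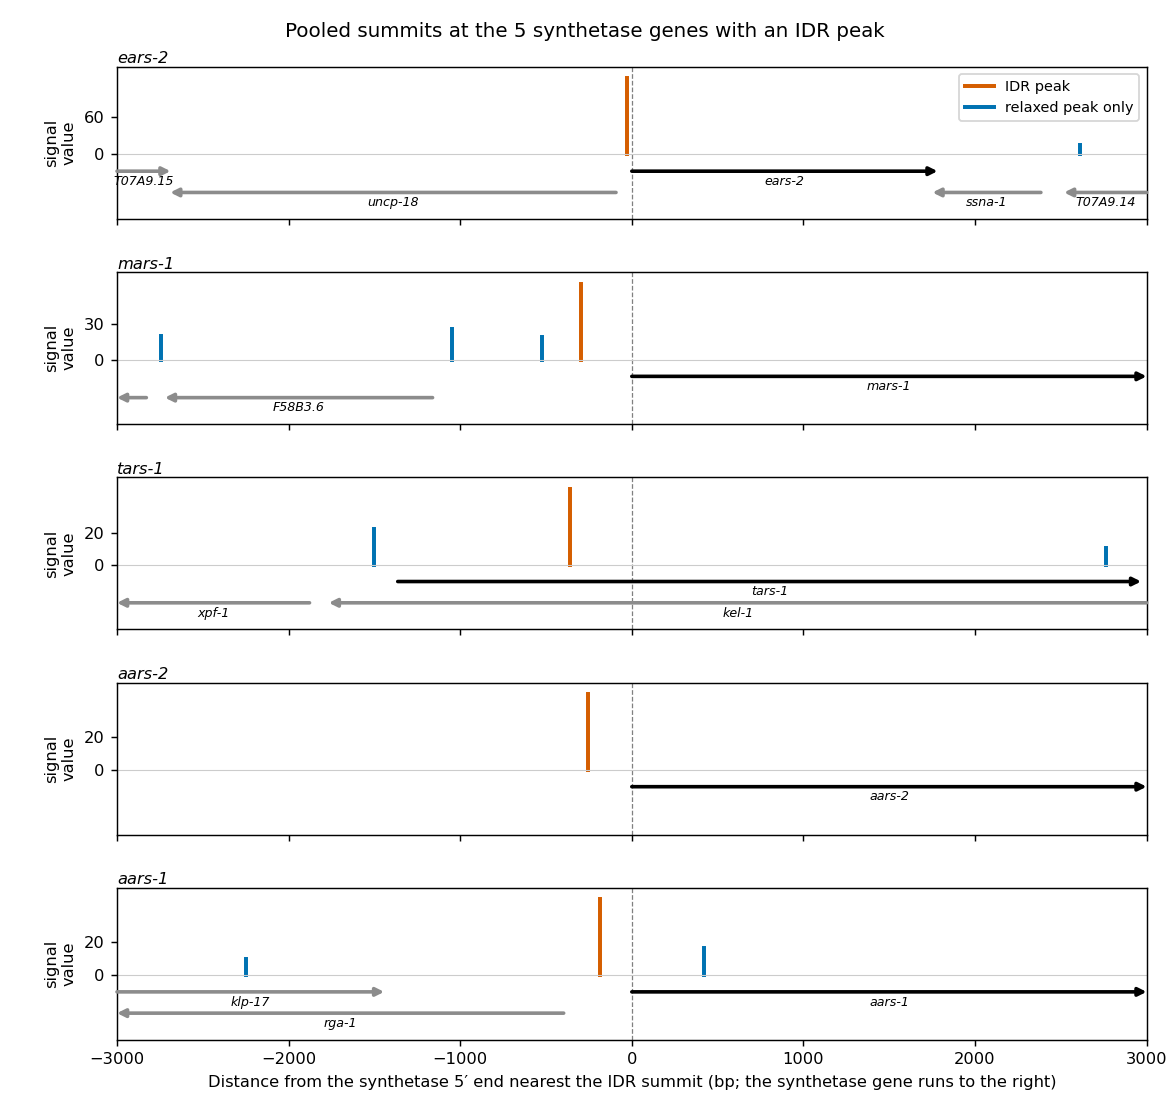
Pooled summits (vertical lines, height in the authors' signal value) and protein-coding genes (arrows pointing along transcription) within 3000 bp of the 5' end nearest the IDR summit at the 5 synthetase genes with an IDR peak. Vertical scales differ between panels. The IDR summits at ears-2 and aars-1 lie between divergent genes, that of tars-1 lies inside tars-1 and kel-1, and those of mars-1 and aars-2 have no other 5' end within 500 bp.

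All 5 IDR summits lay upstream of the nearest 5' end of the synthetase gene, from 29 to 358 bp away with a median of 253 bp. Over all 1397 genes with an IDR summit, 90.7% had it upstream and the median was 190 bp. The summit was shared with another protein-coding gene at 3 of the 5 synthetase genes, beside 42.5% of all 1397 genes. When summits in reach of a second protein-coding gene were left out, 2 of the 32 remained (mars-1 and aars-2), beside 4.07% of all genes. Within 200 bp there were 2 (aars-1 and ears-2), beside 3.43%, and within 1000 bp there were 6, beside 9.13%. The added gene at 1000 bp was pars-2, a proline enzyme gene, through an IDR peak 978 bp downstream of an inner 5' end (signal value 54.2, rank 1196). That peak lies past the 3' end of pars-2, in an intron of T27F6.6 and near the 5' end of T27F6.6.

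Both replicates placed ears-2 and mars-1 among their highest peaks, and they differed on the remaining genes. Among the 2141 highest peaks of replicate 1, 4 synthetase genes had a summit (aars-1, aars-2, ears-2 and mars-1), beside 6.92% of all genes. Among the 2141 highest of replicate 2, 4 had one (ears-2, kars-1, mars-1 and tars-1), beside 6.66% of all genes. Of the 5 genes with an IDR summit, 2 were within both replicates' highest peaks. Of all 1397 such genes, 902 were (64.6%). The ratio of the signal value in replicate 1 to that in replicate 2 was 2.44 at aars-1 and 2.78 at aars-2, against a median of 1.29 over 2114 nuclear IDR peaks, whose 5th and 95th percentiles were 0.601 and 2.80. It was 1.25 at ears-2, 1.29 at mars-1 and 0.975 at tars-1. Both alanine enzyme genes thus stood toward the end of the range where replicate 1 is higher, yet inside it. The scaling of the signal value in each replicate is not stated, and sequencing depth is unknown, so the part that depth had in this difference was not tested.

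**Figure D3:**
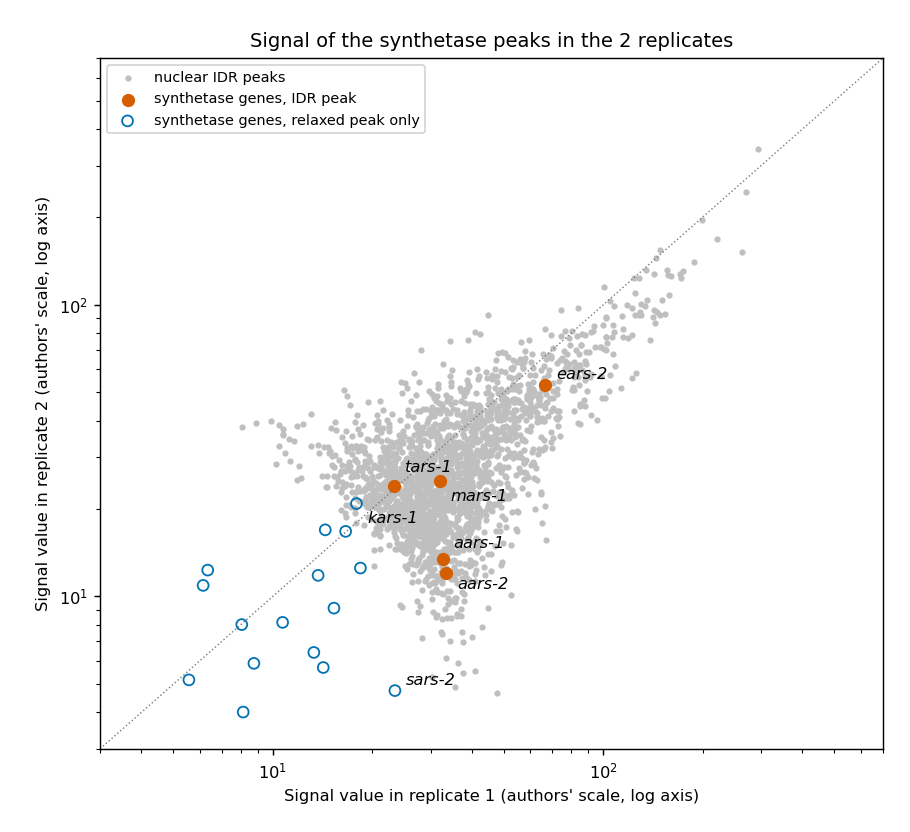
Signal value in replicate 1 (x axis) against replicate 2 (y axis), both on log axes, for nuclear IDR peaks (grey), synthetase genes with an IDR peak (filled) and synthetase genes with a relaxed pooled peak only and a value in both replicates (open). The dotted line marks equal values. The ratio of replicate 1 to replicate 2 at aars-1 and aars-2 exceeds that of 92.6% and 94.7% of IDR peaks, and sars-2, with 23.4 and 4.75, lies farther below the line.

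Beyond the IDR list, most synthetase genes had a summit in the relaxed pooled list. That list held 30000 peaks, made as input for the IDR step, and the authors name it peaks and background. A summit in it alone may thus be background. Of the 32 genes, 24 had a summit of this list within 500 bp of a 5' end (75.0%, exact 95% interval 56.6 to 88.5%). The share of all protein-coding genes was 39.0%, and the interval lies above it. The median rank of the 24 genes was 5805, beside 8746 over all genes with such a summit. In the 4282 highest pooled peaks there were 10 synthetase genes (31.2%), beside 12.2% of all genes. In the 1070 highest IDR peaks there were 2 (ears-2 and mars-1), beside 3.95%. Since the 2141 IDR peaks are also the 2141 highest of the pooled list, these counts move along 1 ranking.

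Of the 19 genes with a relaxed summit only, kars-1 was nearest to the cut. It encodes the lysine enzyme, and its summit 337 bp upstream had a signal value of 39.0 and rank 2253 in the pooled list, with 17.9 (rank 4001) in replicate 1 and 20.8 (rank 1829) in replicate 2. A further IDR summit (signal value 45.1, rank 1718) lay 1006 bp upstream of kars-1, within the 1398 bp that separate it from the divergent gene kat-1, and was 393 bp upstream of kat-1. Of these 2 summits between both genes, the one nearer kars-1 fell below the cut.

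The next members in the pooled list were hars-1 (histidine, signal value 32.6, rank 3140), nars-1 (asparagine, 30.8, rank 3458), sars-2 (serine, 28.6, rank 3986) and cars-1 (cysteine, 27.6, rank 4258). They were followed by dars-1 (aspartate, signal value 26.4, rank 4616), gars-1 (glycine, 26.0, rank 4733) and fars-3, the beta subunit of the phenylalanine enzyme (21.0, rank 6877). Then came vars-1 (valine, signal value 20.0, rank 7510), sars-1 (serine, 19.2, rank 8028) and pars-2 (proline, 19.1, rank 8127). Their summits were mostly upstream of the nearest 5' end, but those of cars-1, fars-3 and gars-1 were 194, 24 and 353 bp downstream. The pars-2 summit was 241 bp upstream of an inner 5' end but 2513 bp downstream of the outermost one, in a coding exon of pars-2. At sars-2 the ratio between the replicates was 4.93, farther from 1 than at any other member with a value in both, with a signal value of 23.4 (rank 2312) in replicate 1 and 4.75 (rank 24503) in replicate 2. The order of dars-1 was the reverse, with 6.35 (rank 25131) in replicate 1 and 12.3 (rank 5057) in replicate 2. Its summit was 236 bp upstream in replicate 1 and 134 bp upstream in replicate 2. At these levels neighbours in the pooled order changed places between replicates.

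A further 8 genes had a best pooled rank from 8985 to 22587: qars-1, yars-2, rars-1, lars-1, nars-2, fars-1, iars-2 and rars-2. The remaining 8 had no pooled summit within 500 bp: dars-2, ears-1, fars-2, iars-1, lars-2, pars-1, wars-1 and yars-1. Of these, ears-1 and iars-1 had a summit in replicate 2 alone (ranks 17101 and 27184) and fars-2 in replicate 1 alone (rank 24076). A gene without a summit may still have been bound below what this list shows, since depth is unknown. Of the 24 best pooled summits, 20 lay upstream of the nearest 5' end and 16 upstream of the outermost one, and 13 were in intergenic sequence, while 8 fell inside the synthetase gene.

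**Figure D4:**
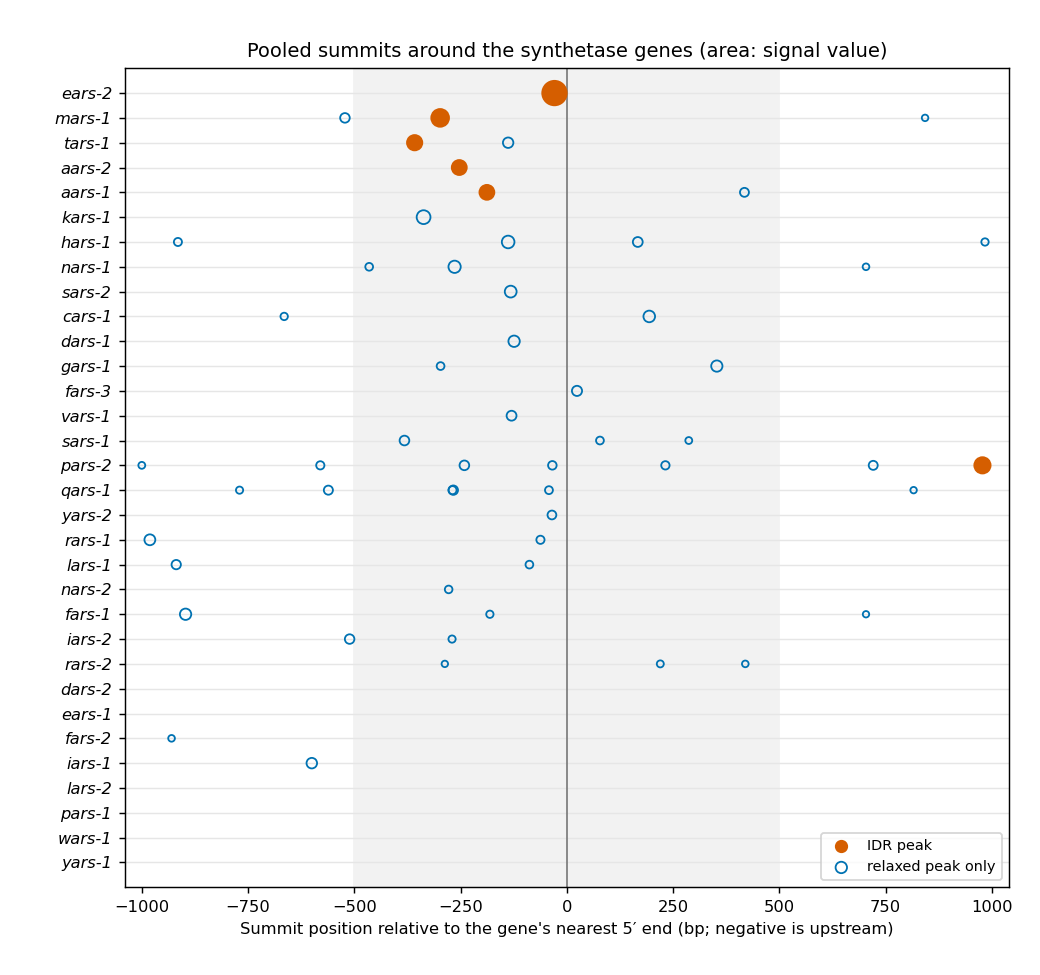
Position of every relaxed pooled summit within 1000 bp of the nearest 5' end of each synthetase gene, with IDR peaks filled and other relaxed peaks open and the symbol area in proportion to the signal value. Grey shading spans the 500 bp on either side that counted. Filled symbols within it are all upstream, and the filled symbol of pars-2 lies 978 bp downstream.

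The counts of genes with a summit did not separate cytosolic from mitochondrial forms. By gene number, 3 of 20 genes numbered 1 had an IDR summit (15.0%, exact 95% interval 3.21 to 37.9%), and 2 of 11 genes numbered 2 had one (18.2%, exact 95% interval 2.28 to 51.8%). For any relaxed pooled summit the counts were 15 of 20 (75.0%) and 8 of 11 (72.7%). The intervals overlap widely, and with so few genes a difference in either direction was not detectable. Among genes with a relaxed summit, the median pooled rank was 4616 for the 15 numbered 1 (797 to 19943) and 9586 for the 8 numbered 2 (166 to 22587). The median was nearer the top of the list for the genes numbered 1, but the ranges overlap almost wholly and the difference was not tested. In the 4282 highest pooled peaks the counts were 7 of 20 and 3 of 11. With replicate 2 alone, 3 genes numbered 1 and 1 numbered 2 had a summit in the 2141 highest peaks. The gene fars-3, numbered 3, was in neither class. In another classing, aars-1 and vars-1 were taken as mitochondrial and aars-2 and fars-3 as cytosolic, after the encoded enzyme. All other genes kept the class of their number, so this is mostly the same classing again. The counts were then 3 of 20 (aars-2, mars-1 and tars-1) and 2 of 12 (aars-1 and ears-2). Both of the latter summits were shared with a divergent gene. Without summits in reach of a second protein-coding gene, the counts by enzyme were 2 of 20 (aars-2 and mars-1) and 0 of 12. Within 200 bp they were 0 of 20 and 2 of 12 (aars-1 and ears-2). The order of the classes thus changed with the setting, on few genes. The placings of vars-1 and fars-3 are background knowledge and are not in their RefSeq product names. Several other RefSeq product names, such as those of gars-1 and kars-1, give no compartment either. Any gene that serves both compartments was counted in a single class.

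For 11 amino acids both a gene numbered 1 and a gene numbered 2 were annotated in Ensembl. Methionine was not among them, since the symbol mars-2 is given by RefSeq only. There mars-1 had an IDR summit and the gene that RefSeq names mars-2 had none. The alanine pair was the only pair in which both had an IDR summit, at ranks 1689 (aars-1) and 1661 (aars-2). Both sit on different chromosomes, and their signal values in the pooled list differed by less than those of the replicates at either gene. In the glutamate pair ears-2 had an IDR summit and ears-1 had no pooled summit at all. In the other 9 pairs neither had one. A relaxed summit was present at both genes in 4 pairs (alanine, asparagine, arginine and serine), at the gene numbered 1 alone in 3 and at the gene numbered 2 alone in 4. These are counts over few pairs in a list that includes background, and 39.0% of all protein-coding genes had such a summit.

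Some synthetase genes lay close behind another gene, and in a pair of cases that gene had the IDR summit. A protein-coding gene on the same strand ended within 500 bp upstream of the outermost 5' end at 11 of the 32 genes. Of these upstream genes, 2 had an IDR summit at a 5' end, beside 6.99% of all nuclear protein-coding genes. The gene lars-2 follows ZK524.4 after 99 bp, and the ZK524.4 summit had a signal value of 41.8 and rank 1995. The gene vars-1 follows oma-2, an oocyte maturation gene, after 196 bp, and the oma-2 summit (signal value 49.5, rank 1443) was 2420 bp upstream of vars-1. Close same-strand genes in worms can be transcribed together as operons, but no operon annotation was used here. Divergent genes within 500 bp were found at 6 members, of which aars-1 and ears-2 had an IDR summit. The share among all genes with a close same-strand or divergent neighbour was not computed, so these small counts are not set apart from background.

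IDR peaks also lay within reach of other members without being at their 5' ends. An IDR peak inside fars-1, the gene of a phenylalanine enzyme, had a signal value of 85.4 and rank 420, and its summit was 1369 bp downstream of a 5' end, on the non-coding RNA gene T08B2.14 and an annotated pseudogene within an intron. A peak 1825 bp upstream of iars-2, an isoleucine enzyme gene (signal value 65.0, rank 787), was in an intron of fath-1. No tRNA gene lay within 500 bp of a synthetase gene, and the nearest was 46485 bp away, so peaks at tRNA genes do not enter these counts. RefSeq gives the symbol mars-2 to Y105E8A.20, which the Ensembl names do not count as a member. It had no IDR summit, and its best pooled rank was 19355. The gene yars-1, of the tyrosine enzyme, follows it on the same strand after 109 bp and had no pooled summit.

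Set beside other genes of translation, the share of synthetase genes with an IDR summit was higher in value than that of mitochondrial ribosomal protein genes and lower in value than those of cytosolic ribosomal proteins and translation factors. It was 5 of 32 for the synthetases (15.6%), 7 of 70 for mitochondrial ribosomal protein genes (10.0%, exact 95% interval 4.12 to 19.5%), 15 of 36 for initiation and elongation factor genes (41.7%, exact 95% interval 25.5 to 59.2%) and 58 of 78 for cytosolic ribosomal protein genes (74.4%, exact 95% interval 63.2 to 83.6%). The interval of the synthetases overlaps those of the mitochondrial ribosomal proteins and of the factors and lies below that of the cytosolic ribosomal proteins. The differences between these lists were not tested. For any relaxed summit the shares were 75.0%, 77.1%, 80.6% and 97.4% in the same order, closer together than for IDR summits. The highest peaks were at mrpl-28, mrpl-55 and mrps-7 among mitochondrial ribosomal proteins (signal values 102.2, 84.8 and 78.1). Of these, the mrps-7 summit was shared with the protein-coding gene Y57G11C.3. Among the factors they were at eef-1A.1, eef-1B.1 and eef-2, elongation factor genes, with signal values of 134.5, 126.7 and 123.7, each shared with another protein-coding gene.

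**Figure D5:**
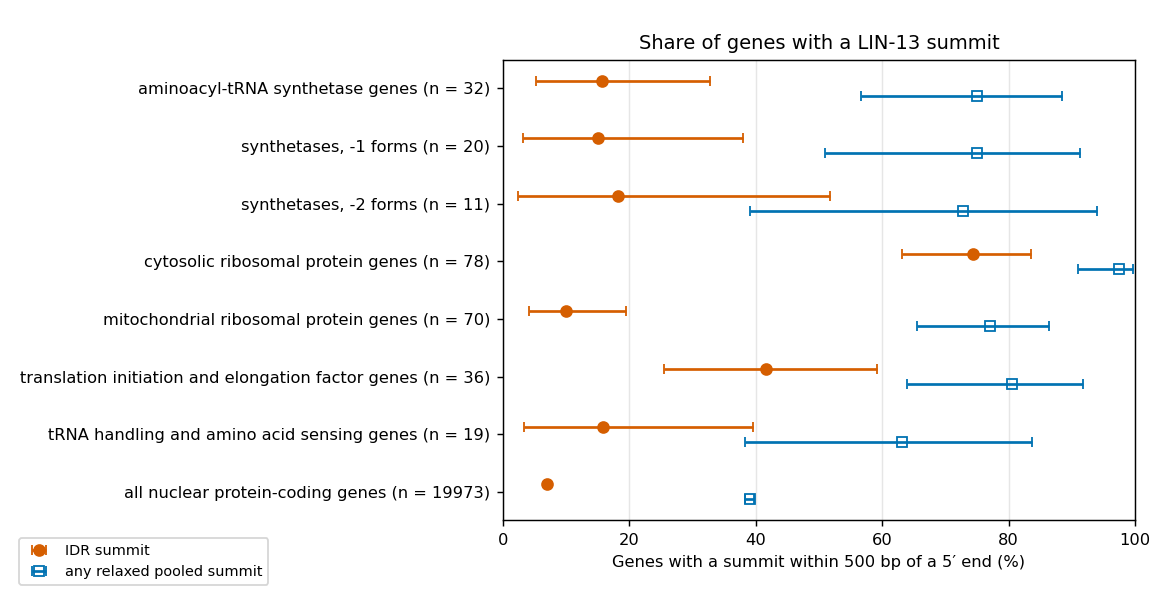
Share of genes with a LIN-13 summit within 500 bp of a 5' end, for IDR summits (filled circles) and for any relaxed pooled summit (open squares), with exact Clopper-Pearson 95% intervals, for the synthetase genes, the forms numbered 1 and 2, related lists and all nuclear protein-coding genes. The synthetase genes stand at 15.6% and 75.0%, all protein-coding genes at 6.99% and 39.0%.

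Of 19 genes for handling tRNA and other RNA or for sensing amino acid shortage and stress, 3 had an IDR summit (15.8%, exact 95% interval 3.38 to 39.6%). A relaxed summit was at 12 (63.2%, exact 95% interval 38.4 to 83.7%). Both intervals hold the shares of all nuclear protein-coding genes, 6.99% and 39.0%. The 3 with an IDR summit were mtcu-2, a mitochondrial tRNA modification gene (signal value 87.1, rank 392), nsun-1, a gene of an RNA methyltransferase (58.8, rank 990), and atf-4, a transcription factor gene of the integrated stress response (46.1, rank 1651). The atf-4 summit was shared with another protein-coding gene, WBGene00303075, and those of mtcu-2 and nsun-1 with none. The kinase gene gcn-2, whose product senses uncharged tRNA, had a pooled rank of 12221, and gcn-1, its activator, had 4114. The share was close to that of the synthetases, on few genes.

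The sequence words searched were those of GAGA factors, E2F, SP1, E-box and CHR elements and the mammalian amino acid response element. Within 100 bp of the summit, counting both strands, GAGAGAG was at 0 of 5, beside 19.8% of the 2121 nuclear IDR summits. TTTCGCGC or TTTGGCGC, an E2F-like word that includes GCGC, was at 0 of 5 (4.20% of IDR summits), CACGTG, the E-box, at 0 of 5 (6.98%), and TGATGNAA, like the amino acid response element of mammals, at 0 of 5 (4.71%). GGGCGG, an SP1-like word, was at aars-2 (11.1% of IDR summits), and TTTGAA or TTCGAA, a CHR-like word, at aars-1 and aars-2 (42.9%). With 5 summits, a share of up to 52.2% is allowed by a count of 0 (upper bound of the exact 95% interval). In the 300 bases from 250 before to 50 after the outermost 5' end of all 32 genes, GAGAGAG was at aars-1 and hars-1 (6.25%, beside 6.79% of all promoters of that length) and TGATGNAA at iars-1 and lars-1 (6.25%, beside 7.46%). The CHR-like word was at 20 of 32 (62.5%, beside 68.9%). GGGCGG was at aars-2 and tars-1 (6.25%, beside 7.81%), CACGTG at hars-1 (3.12%, beside 5.83%) and the E2F-like word at none (beside 2.02%). These shares were near those of all promoters, and a missing word says nothing about a factor.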

How the data were processed

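LIN-13 was measured by chromatin immunoprecipitation sequencing in 2 biological replicates of 1 group, taken from the labels' descriptions. The authors deposited peak lists on 2 builds. By their listings, peaks were called against a control in each replicate and in both pooled. This gave relaxed lists of 30000 peaks and from them an IDR list of 2141. The pooled relaxed list is named peaks and background, so not every entry need be a binding site. The signal value of each peak is the authors' own, deposited with no scaling given, and was read within a list, by rank, or as a ratio beside that of all IDR peaks. Aligner, caller and IDR threshold were not given in the sources used here. Depth per replicate is unknown. The ce10 lists were not used, since the annotation is on ce11.

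Genes and 5' ends of protein-coding transcripts came from Ensembl release 115 (WBcel235, the ce11 coordinates), product names and sequence from RefSeq on the same assembly. A summit counted within 500 bp of any 5' end, and a gene's best summit was its highest by signal value. Many worm 5' ends in the annotation mark trans-splicing, not the start of transcription. Positions count from 1. Exact Clopper-Pearson 95% intervals of shares cover counting error only and treat genes as independent although neighbours can share a summit. No test between groups was possible.

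Every member was described, by name with values where its rank was within 4 times the length of the IDR list. The members, lists and words were chosen with earlier results of these data known. The gene look-up was tested on simulated summits. Alternatives were 1 replicate alone, other distances, shorter and longer lists, peak overlap of at least 1 bp, summits at 1 gene, other classes and other windows. Software was matplotlib 3.10.9, SciPy 1.17.1, pandas 2.3.3, NumPy 2.4.6 and Python 3.11.15.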

Additional observations from a re-analysis of the deposited data

How the results depend on the processing

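No paired analysis was possible because both samples belong to 1 group. The count of 5 synthetase genes with an IDR summit was 4 with either replicate alone, 5 by peak overlap and 6 at 1000 bp. It was 2 at 200 bp, 2 in the 1070 highest IDR peaks, 10 in the 4282 highest pooled peaks and 2 without summits in reach of a second protein-coding gene. Of genes numbered 1, 3 had an IDR summit, but 1 at 200 bp, 1 in the shorter list, 7 in the longer list and 1 among amino acids with both forms annotated, and from 2 to 3 with 1 replicate left out. Of genes numbered 2, 2 had one, but 1 at 200 bp, 1 in the shorter list, 3 in the longer list and from 1 to 2 with 1 replicate left out, the lower value being without replicate 1. Reclassing aars-1, aars-2, fars-3 and vars-1 by the encoded enzyme, with all others by number, left 3 and 2 under the main rule. In that classing the cytosolic and mitochondrial counts were 0 and 2 at 200 bp. Without summits in reach of a second protein-coding gene they were 2 and 0. Sharing of the summit stayed at 3 of 5 with non-coding genes counted. Of the words at summits, GAGAGAG was at 1 of 5 within 200 bp (aars-1) and the CHR-like word at 1 of 5 within 50 bp. The cause of these changes was not tested, other than that shorter lists and distances hold fewer summits. Unknown depth limits what the absence of a summit shows.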
